A study of Homo sapiens with 55 samples.

Results

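K562 cells, an established human leukaemia line, that overexpressed the P95H form of the splicing factor SRSF2 were compared with K562 cells that overexpressed its wild-type form (WT), all carrying a guide RNA against GPATCH8 (sgGPATCH8). The comparison held 7 of the 55 samples of the series. They made up 6 libraries, 3 per form of SRSF2, chosen by their labels alone, since the pair of runs of the third P95H library shared 1 column. All 6 libraries carried the guide meant to delete GPATCH8, so by their labels they differ in the form of SRSF2 alone. The matching pair of groups with sgRenilla, a guide against a luciferase gene that human cells lack, gave 6 further libraries and is given below beside the comparison with sgGPATCH8. The labels name no deletion of the cells' own SRSF2, the promoter that drove the overexpressed form is not given in the sources used here, and nothing says that the replicates came from separate cultures, so p-values measure the spread between these libraries, which may be technical.

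SRSF2 is an SR protein. Proteins of this family bind short motifs in exons and help the spliceosome to recognise the splice sites beside them. Wild-type SRSF2 binds C-rich and G-rich forms of its motif, CCNG and GGNG, about alike, and P95H, a mutation found in myelodysplastic syndromes and related leukaemias, shifts its preference towards CCNG. GPATCH8 encodes a nuclear protein with a G-patch domain, a domain found in activators of RNA helicases.

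The measured quantity was isoform usage. For each splicing event, it is the percentage, among transcripts with any isoform of that event, that used the isoform listed first. That isoform includes the exon of a cassette exon, is spliced at a retained intron, has the shorter intron at an alternative 5' or 3' splice site, has the upstream of a pair of exclusive exons, and has the shorter 3' UTR of a tandem pair. An event was called where limma's adjusted p (Benjamini-Hochberg over all 43933 tested events) was under 0.05 and the group means differed by at least 5 percentage points.

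The coding cassette exons below, picked for display after their values were seen, show matches to these motifs. CCNG and GGNG on the sense strand are in capitals, and runs of capitals hold overlapping matches. Coordinates are GRCh38 and sequences are those of GENCODE 29. The first 3 were included more with P95H. They are a pair of neighbouring exons of the variable region of CD44, a hyaluronan receptor (chr11:35204512-35204640 and chr11:35206112-35206243, plus strand) and an exon of the Src-family kinase FYN (chr6:111700104-111700268, minus strand).
CD44, upstream exon: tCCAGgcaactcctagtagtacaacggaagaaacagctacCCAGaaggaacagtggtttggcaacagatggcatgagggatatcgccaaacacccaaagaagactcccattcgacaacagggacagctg
CD44, downstream exon: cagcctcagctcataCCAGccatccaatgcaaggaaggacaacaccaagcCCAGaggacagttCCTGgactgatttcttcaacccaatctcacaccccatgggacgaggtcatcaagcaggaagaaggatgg
FYN: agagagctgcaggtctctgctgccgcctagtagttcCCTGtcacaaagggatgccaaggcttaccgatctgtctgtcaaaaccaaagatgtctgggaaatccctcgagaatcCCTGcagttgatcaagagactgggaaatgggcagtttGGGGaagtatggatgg

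The CD44 exons held 2 and 3 matches to CCNG and 0 to GGNG, and the FYN exon 2 and 1. The next 4 were included less. They belong to the apoptosis initiator CASP8 (chr2:201274889-201274953, plus strand), the actin-binding protein cortactin, CTTN (chr11:70421470-70421580, plus strand), the adhesion receptor ADGRB2 (chr1:31728025-31728081, minus strand) and ODF2L (chr1:86356444-86356602, minus strand).
CASP8: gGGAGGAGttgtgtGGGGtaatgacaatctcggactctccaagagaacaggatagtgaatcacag
CTTN: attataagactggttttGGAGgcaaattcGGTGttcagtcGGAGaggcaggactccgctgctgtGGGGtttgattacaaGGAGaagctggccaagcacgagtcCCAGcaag
ADGRB2: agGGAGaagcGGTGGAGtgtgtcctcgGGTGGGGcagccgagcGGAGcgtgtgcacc
ODF2L: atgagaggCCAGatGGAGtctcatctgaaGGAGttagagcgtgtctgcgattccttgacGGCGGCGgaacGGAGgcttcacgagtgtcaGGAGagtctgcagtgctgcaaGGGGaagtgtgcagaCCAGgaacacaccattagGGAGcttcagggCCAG

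CASP8 and ADGRB2 held 0 matches to CCNG, with 3 and 6 to GGNG. CTTN held 1 and 5, and ODF2L 3 and 8. Not all exons followed this division. The exon of the histone deacetylase HDAC7 below (chr12:47795906-47796016, minus strand) held 6 matches to CCNG and 2 to GGNG and was included less, and the exon of NBEAL2, a protein of platelet granules (chr3:46992475-46992555, plus strand), held 8 and 3 and was included more with sgRenilla but not with sgGPATCH8.
HDAC7: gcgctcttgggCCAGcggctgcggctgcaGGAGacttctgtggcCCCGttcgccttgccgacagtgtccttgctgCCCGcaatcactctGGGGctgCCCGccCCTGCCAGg
NBEAL2: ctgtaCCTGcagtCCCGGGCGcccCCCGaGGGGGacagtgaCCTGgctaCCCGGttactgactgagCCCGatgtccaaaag

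Each percentage below sets an exon against the skipping isoform of its own event, not against all transcripts of the gene. With P95H, the upstream CD44 exon was at 69%, 72% and 59% in the 3 libraries, against 46%, 48% and 44% with WT. The downstream exon was at 61%, 65% and 70%, against 45%, 38% and 34%. The groups did not overlap at either exon, and the rises were 20.7 and 26.3 percentage points (limma adjusted p 0.0132 and 0.00771). FYN rose from 54.7% ± 4.62 to 72.3% ± 2.08 (SD, n = 3 each; limma adjusted p 0.018). A called exclusive exon event of FYN lists the same upstream junction first. There the rise was smaller, from 16.7% ± 0.577 to 24.3% ± 1.53 (limma adjusted p 0.0308). CASP8 fell from 86.7% ± 0.577 to 74% ± 3.46 (n = 3 each; limma adjusted p 0.0301) and CTTN from 59% ± 1.73 to 38.3% ± 1.15 (limma adjusted p 0.00355). ADGRB2 was at 94%, 93% and 88% with WT and at 43%, 49% and 61% with P95H (limma adjusted p 0.00201). ODF2L was at 67%, 75% and 61% with WT and at 25%, 11% and 26% with P95H, a fall of 47 points (limma adjusted p 0.0118). HDAC7 fell from 62% ± 2.65 to 41.7% ± 0.577 (limma adjusted p 0.00278).

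Over all unique cassette exons with 1 annotated exon in the gap (291 of the 378 called higher and 506 of the 613 called lower), the 274 included more with P95H held 24.2 matches to CCNG and 13.6 to GGNG per 1000 nt. The 483 included less held 17.5 and 21.2, and the 13642 tested exons that were not called 23.2 and 18.7. Exons with more matches to CCNG than to GGNG made up 57.3% of those included more and 31.5% of those included less, beside 47.9% of all tested exons. Of the exons included more 54.7% held any GGNG, and of those included less 88.6%, beside 74.2% of all tested exons, while 79.9% and 80.7% held a CCNG, beside 81.5%. Exons included more were shorter, with a median of 96 nt against 125 nt, and their median GC content was 49.4% against 50.3%. The sgRenilla libraries do not enter the sgGPATCH8 differences, but they do enter the shared spread and the choice of tested events. Calls with the guides are thus not independent. With sgRenilla, the 95 exons included more held 28.2 CCNG and 14.1 GGNG per 1000 nt, and the 110 included less 18.6 and 28.9. These counts describe exons chosen by the contrast and carry no test, and a match of letters is not a binding site.

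Limma called 1786 of the 43933 tested events for P95H against WT with sgGPATCH8 (4.07%), of which 762 were higher (1.73%) and 1024 lower (2.33%). They lay in 1186 named genes, with 112 events unnamed. An unadjusted p under 0.05 was reached by 8879 events, where 2197 would be expected without any change. The median difference of the called events was 12 points, against 3 for all tested events. It was at least 20 points in 311 called events, at least 30 in 90 and at least 40 in 18. In each of the 1786 the 3 P95H libraries lay all above or all below the 3 WT libraries, which held for 9619 (21.9%) of all tested events. The number rests on the spread shared by the 4 groups of the panel, sgRenilla included: fitted on the 6 sgGPATCH8 libraries alone, 1 event was called, and 8085 had an unadjusted p under 0.05. Leaving out WT replicate 1, 2 or 3 gave 738, 820 or 771 calls, and leaving out P95H replicate 1, 2 or 3 gave 920, 913 or 927. Of these, 686 to 804 were among the 1786.

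The P95H sgGPATCH8 libraries stood apart from the other 9 of the panel along the first principal component of isoform usage (19.2% of the variance). They also spread more, with a root mean square SD of the log2 ratio of used to not used of 0.66, against 0.612 to 0.629 in the other groups, and gave a value for fewer events, 73.6% to 75.3% against 75.4% to 77.5%. The part of these values in the number of calls was not tested. The depth behind a value is unknown. No file gave gene levels, so the markers of K562 cells could be followed only through splicing. Events of GATA1, ITGA2B and TFRC, erythroid and megakaryocytic genes, had a value in all 12 libraries, but so did some events of CD3D and COL1A1. Fewer transcripts of an isoform and more of its alternative cannot be told apart in these percentages.

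**Figure D1:**
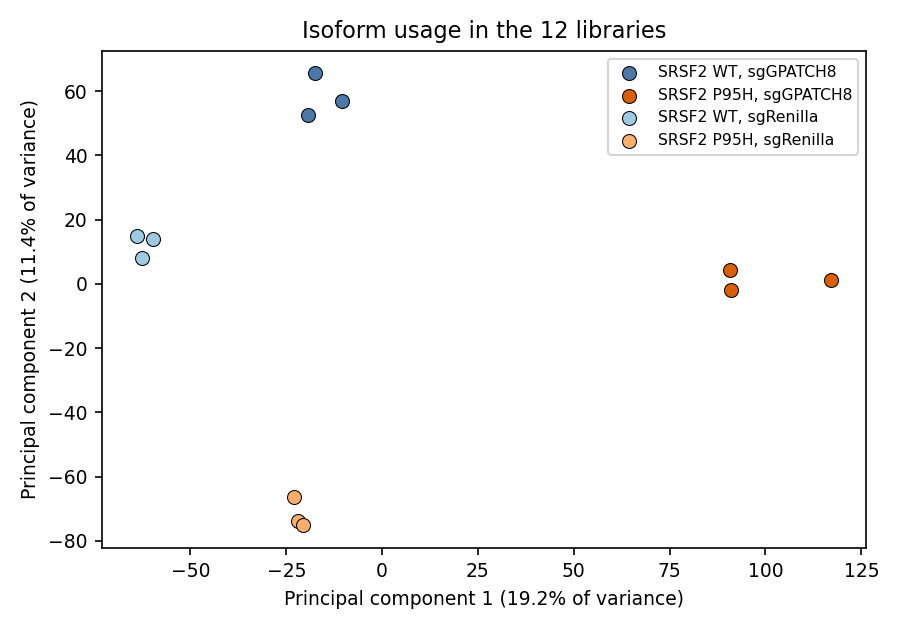
The 12 libraries of the SRSF2 panel on the first (x axis) and second (y axis) principal components of the log2 ratio of used to not used over the tested events, 1 point per library, coloured by group. The 3 P95H sgGPATCH8 libraries lie between 90.7 and 117 on the first component, and the other 9 libraries between -63.9 and -10.4.

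For GPATCH8 and SRSF2 themselves the files gave splicing alone, from which protein levels cannot be read. None of the 3 tested GPATCH8 exons was called between P95H and WT with sgGPATCH8 (7% ± 3.61 to 8.33% ± 2.08, 76.7% ± 4.51 to 78.7% ± 3.79 and 80% ± 10.5 to 82.3% ± 4.51, n = 3 each; limma adjusted p 0.722, 0.787 and 0.933). SRSF2 is known to control its own mRNA by splicing near its 3' end. Splicing of its intron at hg19 chr17:74730644-74731143 (minus strand) was at 50%, 51% and 54% in the WT libraries. In the P95H libraries it was at 26%, 27% and 26%. The groups lay far apart, and the log2 ratio changed by -1.54 ± 0.12 SE (limma adjusted p 0.000419). With sgRenilla the same intron was at 50.3% ± 1.15 with WT and 29.3% ± 1.15 with P95H (n = 3 each). An alternative 5' splice site of SRSF2 fell from 99.7% ± 0.577 to 81% ± 4.58 (limma adjusted p 0.0131). A further SRSF2 intron and a cassette exon were not called (64.7% against 70% and 16.7% against 17%; limma adjusted p 0.221 and 0.925).

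SR proteins and their partners had 24 called events among 131 tested (18.3%), beside 4.07% of all events, in 10 of 22 genes, 10 higher and 14 lower, and some of these events share junctions. Several SR genes carry a poison exon or intron, whose inclusion brings a premature stop. The cassette exon of SRSF3 was at 29%, 29% and 30% in the WT libraries and at 15%, 15% and 16% with P95H (limma adjusted p 0.00126). In SRSF7 an exon was at 26% in all 3 WT libraries and at 18%, 19% and 20% with P95H (limma adjusted p 0.0218). TRA2B, a splicing activator related to SR proteins, fell from 29.7% ± 0.577 to 20% in all 3 P95H libraries (limma adjusted p 0.00731). Its paralogue TRA2A had 8 called events in 6 distinct sets of junctions. In the one with the largest change an exon fell from 51% ± 2.65 to 27.7% ± 0.577 (limma adjusted p 0.00112), while 2 overlapping introns were spliced more (58% to 70.7% and 55.7% to 72.7%; limma adjusted p 0.0304 and 0.0143). In SRRM1, an SR-related coactivator of splicing, an exon within hg19 chr1:24973280-24975350 (plus strand) fell from 14.7% ± 1.53 to 5.67% ± 0.577 (limma adjusted p 0.00129). The intron that spans it was spliced in 80% ± 1.73 with WT and 95% in all 3 P95H libraries (limma adjusted p 0.000435).

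Other called events of the family were higher with P95H. SRSF1, the prototype SR protein, spliced an intron more, 86%, 85% and 85% against 72%, 70% and 73% (limma adjusted p 0.00464), and used an alternative 5' splice site more (72% to 84.7%; limma adjusted p 0.0131). With sgRenilla this intron was at 75% with both forms of SRSF2. The test of the difference between the guides gave a limma adjusted p of 0.0908 for it. An exon of SRSF10, a splicing repressor under heat shock, rose from 70.7% ± 2.08 to 81.3% ± 3.21, the upstream of 2 exclusive exons of SRSF11 from 15.3% ± 2.52 to 28.7% ± 1.53, and an exon of CLK4, a kinase that phosphorylates SR proteins, from 15.3% ± 0.577 to 23% ± 2.65 (n = 3 each; limma adjusted p 0.0366, 0.0231 and 0.0429).

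The hnRNPs, RNA-binding proteins that often repress exons, had 11 called events among 102 tested (10.8%, beside 4.07% of all events), in 8 of 21 genes, 3 higher and 8 lower. The exon of HNRNPDL was at 26%, 25% and 26% with WT and at 9%, 9% and 10% with P95H, a change of the log2 ratio of -1.65 ± 0.12 SE (limma adjusted p 0.000377). HNRNPA1 used the downstream of a pair of 5' splice sites 3 nt apart less, with 80% in all 3 WT libraries and 64%, 66% and 66% with P95H (limma adjusted p 0.00433). HNRNPD had 3 called events: an alternative 5' splice site fell from 10.3% ± 0.577 to 2.67% ± 0.577, an alternative 3' splice site from 32.7% ± 4.51 to 18.7% ± 0.577, and an exon rose from 69.7% ± 1.53 to 81.3% ± 0.577. Alternative 5' splice sites of HNRNPU and HNRNPA2B1 fell by 12.7 and 9 points, and exons of HNRNPA2B1 and HNRNPLL by 6 and 5.67 points. RALY, an hnRNP of the HNRNPC family, rose by 13.7 points at an upstream exclusive exon and HNRNPC by 7 points at an exon (limma adjusted p 0.0149 and 0.0342).

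**Figure D2:**
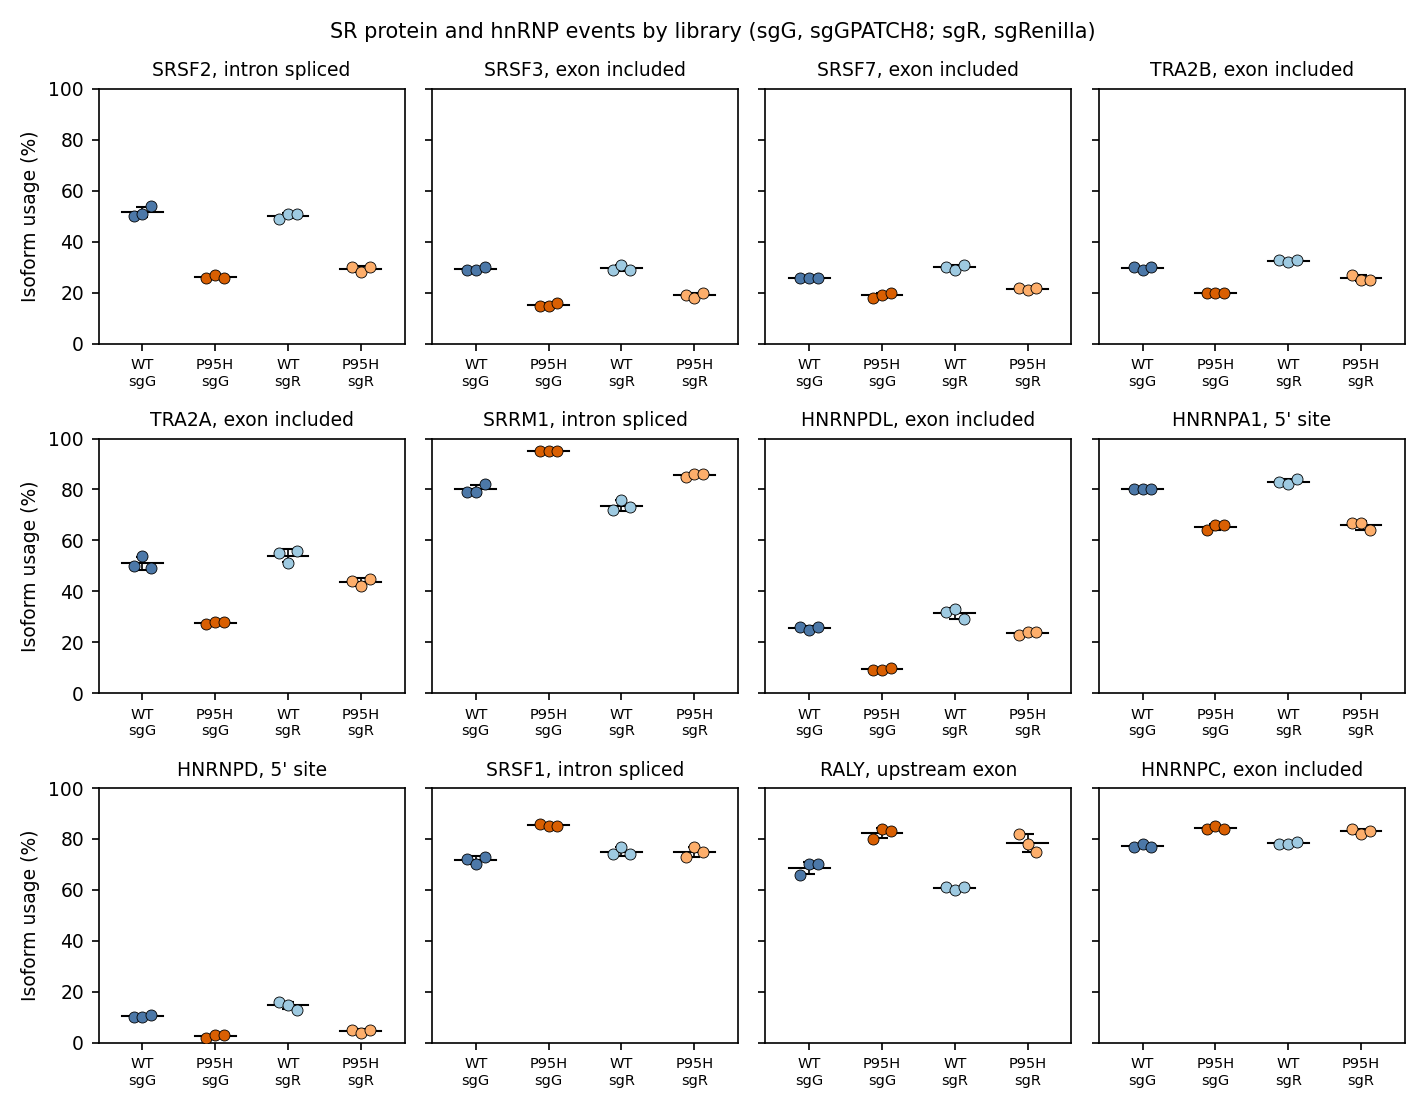
Usage in percent (y axis) of the isoform listed first at 12 called SR protein and hnRNP events, for the 3 libraries of each group (points), with the group mean (horizontal line) and SD (error bar); columns are WT and P95H with sgGPATCH8 (sgG) and with sgRenilla (sgR). The exons of SRSF3, SRSF7, TRA2B, TRA2A and HNRNPDL lie lower with P95H in both pairs of groups, while the SRSF1 intron rose from 71.7% to 85.3% with sgGPATCH8 and was at 75% in both sgRenilla groups.

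The list of known or reported SRSF2 targets, which partly came from knowledge of P95H studies, had 22 called events among 208 tested (10.6%, beside 4.07% of all events), in 11 of 26 genes, 10 higher and 12 lower, and overlaps the lists above in TRA2A and HNRNPA2B1. Besides FYN and CASP8, an exon of the RNA helicase DHX9 fell from 30%, 26% and 27% to 11%, 10% and 10% (limma adjusted p 0.000377), and exons of MLLT10 and the histone methyltransferase SETD2 fell from 61.7% to 45% and from 20.3% to 12%. An exon of ARMC10 rose from 5.33% to 12% and an exon of the transcription factor ATF2 from 11.3% to 20%. An alternative 5' splice site of the nuclease ENDOV rose from 3.67% ± 1.15 to 24.3% ± 8.5. In the septin gene SEPT6 an upstream 3' splice site rose from 67.7% ± 1.53 to 81% in all 3 P95H libraries (limma adjusted p 0.00635).

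A further 8 events, with NBEAL2 described at the end, were added after their values were seen. Their genes are targets much used for P95H, or the events were called with sgRenilla. Each is the event of its gene with the largest sgRenilla difference, and need not be the event known for P95H. They are cassette exons, except in IRF7 and BCOR, where they are alternative 3' splice sites. The exon of EZH2, the Polycomb methyltransferase whose poison exon is a textbook target of P95H, was at 8%, 6% and 6% with WT and 6%, 8% and 6% with P95H (limma adjusted p 1). The groups overlapped fully. With sgRenilla it was at 8.33% and 14.3%, and was not called there either. A cassette exon of INTS3, a subunit of the Integrator complex, was at 30% ± 4.36 and 27.3% ± 4.51 with sgGPATCH8 (limma adjusted p 0.699). It was at 11.7% and 28% with sgRenilla, where it was called. FES stood at 53.3% ± 10.8 and 55.7% ± 19.1 with sgGPATCH8, a wide spread, and at 83% and 41.7% with sgRenilla. GNAS, the stimulatory G protein alpha subunit, rose from 46% to 51.7%, 5.67 points, which did not pass the test (limma adjusted p 0.262). IRF7 was at 38.7% ± 6.51 and 24.7% ± 9.87 (limma adjusted p 0.198), BCOR at 38% and 35.3%, and KRT8 at 13.7% and 11.3%, none of them called. With sgRenilla GNAS (43.7% to 60.3%), FES, IRF7 (57.7% to 20%) and KRT8 (17.7% to 33%) were called, and BCOR (40.3% and 34.7%) was not. KRT8 and NBEAL2 were called in the test of the difference between guides.

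Genes of the core splicing machinery were called at similar shares. Factors of U2 and 3' splice site recognition had 10 called events among 86 (11.6%), in 7 of 18 genes, 6 higher and 4 lower. An exon and an intron of SUGP2, a G-patch protein related to SUGP1, rose (58% to 75.7% and 66.3% to 78%), the upstream exclusive exon of the helicase DDX46 rose (60% to 74.7%), and an exon of PUF60, which binds pyrimidine tracts, fell (78.3% to 65.3%). Other spliceosome genes had 16 called among 143 (11.2%), in 8 of 30 genes, 8 higher and 8 lower. LUC7L, a U1 snRNP-associated protein, gave 4 of the named ones, which partly share junctions: exons fell from 49% ± 1 to 23.7% ± 2.89 and from 64% ± 2 to 36.7% ± 8.33, usage of an upstream 3' splice site went from 71.3% down to 44.7%, and an intron was spliced more (31.3% to 54%). Of the nonsense-mediated decay genes 1 of 43 events was called (2.33%), an exon of RNPS1, a protein of the exon junction complex, which fell from 77.3% ± 0.577 to 68.7% ± 1.15.

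Outside RNA processing the shares were nearer to the 4.07% of all events. Adhesion and cytoskeleton genes had 12 called among 192 (6.25%; 7 higher, 5 lower), with CD44 and CTTN above and an exon of the tropomyosin TPM1 (30.7% to 11.3%). Kinases and signalling genes had 7 among 104 (6.73%; 4 higher, 3 lower), among them 3 cassette exon events of MAPK9, a JNK kinase, with 1 that rose (24.7% to 43.7%) and 2 that fell (35% to 22.7% and 25.7% to 15.7%). Erythroid and heme genes had 9 among 130 (6.92%; 5 higher, 4 lower). In SPTB, which encodes the erythroid beta-spectrin, the upstream of a pair of 3' splice sites 3 nt apart was used in 88%, 92% and 92% with WT and 54%, 50% and 53% with P95H. PPOX, an enzyme of heme synthesis, fell from 81.7% to 58% at an alternative 5' splice site. Exclusive exons and a cassette exon of dematin, DMTN, changed by 11 and -13.3 points.

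DNA repair and cell cycle genes had 11 called among 298 (3.69%; 2 higher, 9 lower). Exons of the phosphatase CDC25C and the spindle protein NUMA1 fell from 79.3% ± 4.04 to 59% ± 1.73 and from 30.3% ± 1.15 to 13.3% ± 1.53, and 2 overlapping introns of the DNA glycosylase OGG1 were spliced less (37.7% to 16% and 50.7% to 31%). Chromatin genes had 7 among 186 (3.76%; 2 higher, 5 lower), with HDAC7 above and an upstream 3' splice site of the methyltransferase KMT2A (76.7% to 66%). Interferon and innate immunity genes had 4 among 118 (3.39%; 4 higher, 0 lower): exons of TRAF3, NFKB1 and IRF3 rose by 10.7, 11.7 and 14.3 points, and an intron of STAT2 was spliced more by 11.7 points. Apoptosis genes had 1 among 133 (0.752%), the CASP8 exon. Of the lymphoid markers 1 of 22 events was called, an exon of PTPRC (9% to 17.7%). Of the fibroblast and epithelial markers limma called 0 of 27, with 2 at an unadjusted p under 0.05.

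Among events with a gene name, the largest rise was at a 3' splice site of MSTO2P, a pseudogene whose reads may not be separable from its parent gene MSTO1. It was at 27%, 31% and 24% with WT and 90%, 88% and 95% with P95H. Inclusion of an exon of ATXN3, a deubiquitinase, rose from 24%, 9% and 18% to 79%, 77% and 56%. An alternative 5' splice site of PSPH, the last enzyme of serine synthesis, rose from 50%, 46% and 45% to 90%, 90% and 93%. The libraries of the groups lay far apart in each. An unnamed cassette exon within hg19 chr10:47400736-47409853 rose from 9.67% to 64.7%. With sgRenilla it was at 72% with WT and 84% with P95H, so the WT sgGPATCH8 group was the one apart. Others of the 12 largest rises among named genes were in ACP5 (19.3% to 60.7%), PI4KA (51% to 90.7%), PTPN13 (40.3% to 80%), TRAK2 (44.7% to 83.3%), COP1 (52% to 89.7%), SKAP1 (48% to 85.7%), UQCC1 (31% to 68.3%), NSMAF (16% to 53%) and IP6K2 (33% to 69%). In SKAP1 too the WT sgGPATCH8 group was the one apart, with 81.7% (WT) and 78% (P95H) under sgRenilla.

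Among the largest falls was that of the exon of WSB1, a substrate receptor of a ubiquitin ligase, at 73%, 75% and 78% against 27%, 27% and 30%, a change of the log2 ratio of -2.91 ± 0.15 SE (limma adjusted p 4.87e-05). Further falls were in DOC2A (74% ± 19.1 to 26.7% ± 12.7), SLC25A29 (59.7% to 16.3%), C9orf129 (88.3% to 45.7%), LMNTD1 (75% to 32.7%), AC087289.3 (79.7% to 39.7%), TFCP2L1 (78.7% to 38.7%) and FOSB (85.3% to 46.7%). With sgRenilla LMNTD1 was at 37.3% with WT and 60% with P95H, both below WT with sgGPATCH8. The exclusive exons of MINOS1 (53.7% to 15.3%) and PTPN12 (68% to 32%) fell most of that type, with FAXDC2 (88.7% to 56%). Most of these genes had 1 called event: 894 of the 1186 named genes had 1, 186 had 2, 65 had 3 and 41 had 4 or more, led by DLEU1, GAS5 and WARS with 9 each. In WARS, the cytosolic tryptophanyl-tRNA synthetase, all 9 of its called events among 26 tested were lower.

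The event types differed in their balance of directions. Cassette exons had 378 called higher and 613 lower of 20087 tested (4.93%), retained introns 124 and 48 of 3728 (4.61%), alternative 5' splice sites 87 and 83 of 4290 (3.96%), exclusive exons 63 and 73 of 3662 (3.71%), tandem 3' UTRs 30 and 20 of 1864 (2.68%) and alternative 3' splice sites 80 and 187 of 10302 (2.59%). Introns were thus spliced more in 72.1% of the called retained introns, and the upstream 3' splice site was used more in 30% of the called 3' splice site events. The largest rises of intron splicing were in PCYT1B (13.3% to 48%), DCUN1D4 (24.3% to 58.7%) and SLC25A18 (50.3% to 82.7%), and the largest falls in MST1 (78.3% to 40.3%), SPATA20 (46.3% to 20.3%) and SRSF2. Of introns over 1000 nt 33 were spliced more and 6 less (8.74% of 446 tested), and of those up to 150 nt 16 and 11 (2.13% of 1265). Among alternative 3' splice sites, pairs 3 nt apart had 18 higher and 60 lower of 5277 (1.48%), and pairs over 150 nt apart 23 and 38 of 663 (9.2%). The called pairs 3 nt apart also spread more among the P95H libraries, with a median SD of 5.32 points against 1.73. Cassette exons of up to 60 nt were included more in 63 and less in 50 of 2052, and those over 180 nt more in 40 and less in 114 of 2514.

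**Figure D3:**
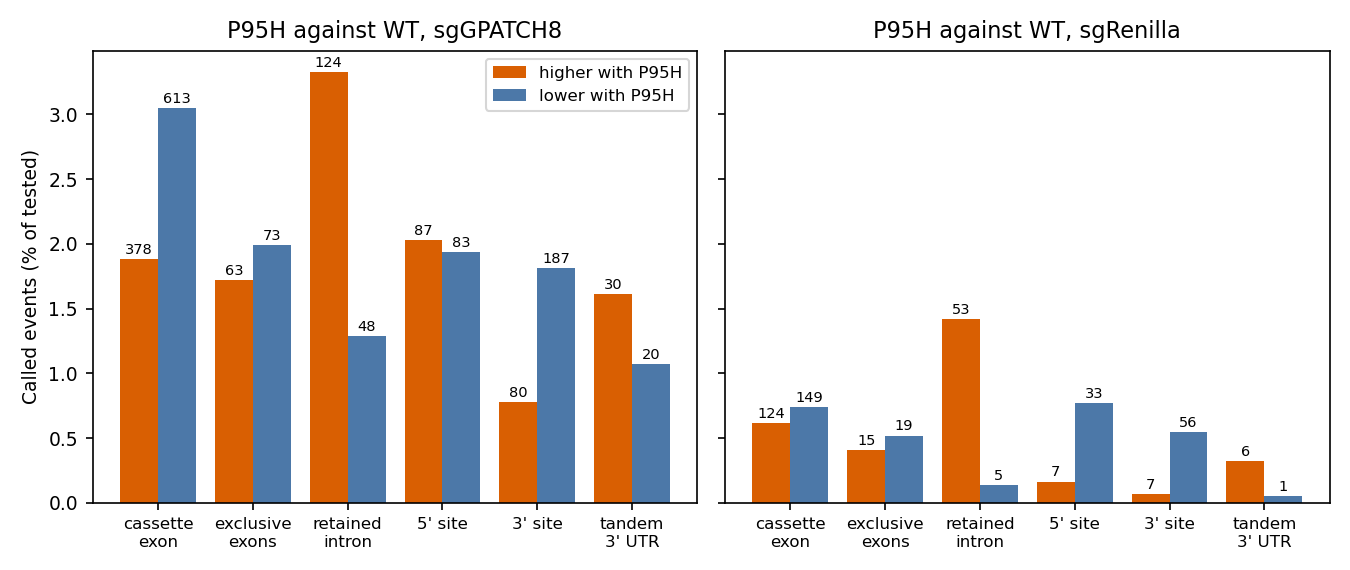
Called events as a percentage of those tested (y axis) for each event type (x axis), higher (orange) or lower (blue) with P95H, with sgGPATCH8 (left) and with sgRenilla (right); the number of events stands over each bar. With sgGPATCH8 retained introns were higher in 124 events and lower in 48, and cassette exons higher in 378 and lower in 613.

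The comparison with sgRenilla shares no library with that with sgGPATCH8, though both use the spread and choice of events from all 12 libraries. It had 475 called events (1.08%), 212 higher (0.483%) and 263 lower (0.599%), and 203 events were called with both guides. These were 11.4% of the sgGPATCH8 calls and 42.7% of the sgRenilla calls, and 196 of the 203 had the same sign. Of all 1786 sgGPATCH8 calls 76.4% had the same sign with sgRenilla, where their median difference in the same direction was 3.33 points against 12. Of the 475 sgRenilla calls 84.8% had the same sign with sgGPATCH8, where the median was 7 points against 13. Over all tested events 53.9% had the same sign. As a description across events, which are not independent, Pearson's r of the log2 changes was 0.196 and Spearman's rho 0.201. By type, the sgRenilla calls were 53 higher and 5 lower for retained introns, 7 and 56 for 3' splice sites, 7 and 33 for 5' splice sites, and 124 and 149 for cassette exons. Whether these splits differ between the guides was not tested.

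The test of the difference itself, the interaction of P95H with the guide, called 27 events (0.0615%), 9 higher (0.0205%) and 18 lower (0.041%) with sgGPATCH8, in 22 named genes, while 5237 had an unadjusted p under 0.05. Thus 1786 against 475 calls does not show that P95H acted on different events with each guide. In 21 of the 27 the differences had opposite signs with the guides. Choosing events by a large difference between the guides favours opposite signs, so this count carries no test. Of the 27, 23 were called with sgGPATCH8, 11 with sgRenilla and 7 with both. PSPH rose by 44 points with sgGPATCH8 and changed by -10.3 points with sgRenilla (limma adjusted p of the interaction 0.00684). An intron of COL7A1, a collagen gene, was spliced in 28%, 27% and 35% with WT and 53%, 66% and 54% with P95H under sgGPATCH8, and fell from 51% ± 5.29 to 25% ± 5.57 under sgRenilla (limma adjusted p of the interaction 0.03). WSB1 fell with both guides, by 47.3 and 21 points. HDAC7, SPTB and HIST1H2BJ changed by -20.3, -38.3 and -29.7 points with sgGPATCH8 and by 6.33, -2.67 and -1 with sgRenilla. NBEAL2, whose exon is printed above, was at 23%, 20% and 22% with WT and 20%, 24% and 23% with P95H under sgGPATCH8, and at 18% ± 1 and 44.3% ± 1.53 under sgRenilla (limma adjusted p of the interaction 0.0224). Without one library of the 12 at a time, the interaction gave 5 to 12 calls.

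**Figure D4:**
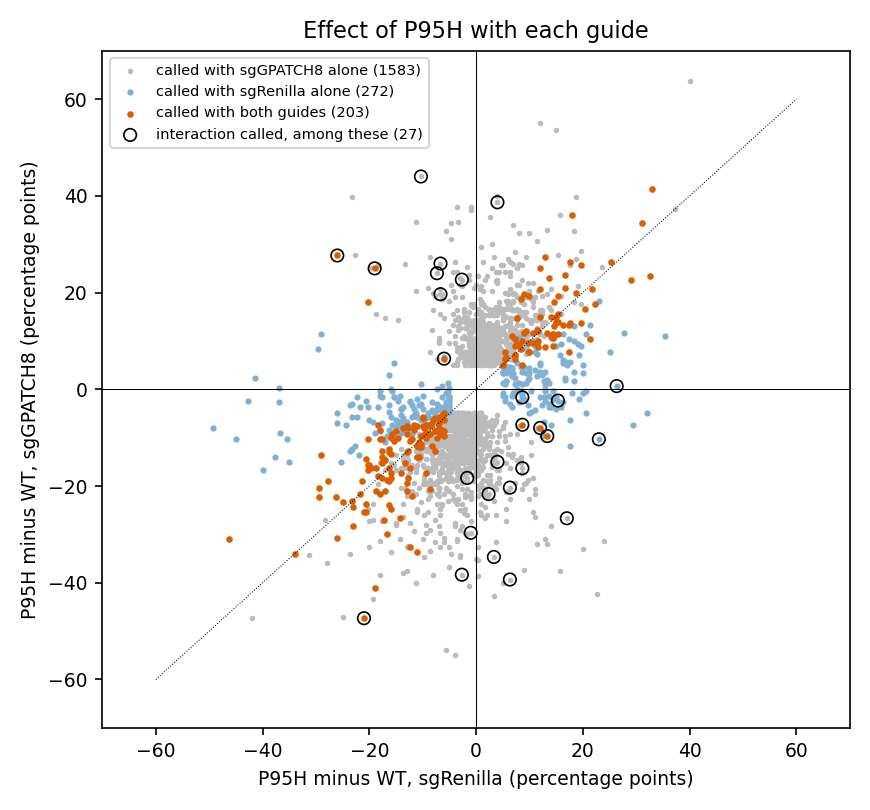
Difference of P95H minus WT in percentage points with sgRenilla (x axis) and with sgGPATCH8 (y axis) for each event called with either guide, 1 point per event; circles mark interaction calls and the dotted line equal differences. The 203 events called with both guides lie mostly in the lower left and upper right quadrants, 196 of them with the same sign.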

How the data were processed

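RNA was sequenced from the 12 K562 libraries of the SRSF2 panel. The deposited values are, for each event, the fraction (0 to 1, with 2 decimals) of the isoform listed first; the unit was read from the values. The submitters' processing notes name TopHat, TopHat2 2.0.8b, Bowtie and RSEM 1.2.4 and build hg19 (GRCh37), without saying which tool did what or when a value is missing. The labels' protocols describe poly(A)-selected, strand-specific (dUTP), paired-end libraries. Depth is unknown, so no interval or floor was computed.

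Events with a value in all 12 libraries were kept if the highest group mean reached 5% and the lowest was no more than 95%. Fractions became log2((f + 0.01)/(1 - f + 0.01)), which was fitted with limma 3.58.1 (R 4.3.3) with a mean for each of the 4 groups and a trended prior variance, and tested on simulated data. The 4 groups share 1 estimate of the spread. Gene names came from GENCODE 29 (GRCh38), by exact intron length and a shift shared with neighbouring events (102559 of 110816 events, 92.5%), and no coordinate was converted. Event coordinates are hg19. Exon coordinates beside sequences are GRCh38.

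Named events were the 12 largest called rises and falls (1 per gene), the 3 largest per type and direction, all called events of the SRSF2 target, SR protein and hnRNP lists, up to 4 of each other list, all events of GPATCH8 and SRSF2, and the 6 largest interactions per direction. Members and lists were chosen with earlier results of these data known. Alternatives were another offset, a missing value allowed, no limit on means, a fit of the percentage, a constant prior, a replicate block, a limit of 10 points, no tandem 3' UTR events, the 2 groups alone, each library left out and, chosen after seeing the data, a weight per library. Some events and a sequence are not reported here.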

Additional observations from a re-analysis of the deposited data

Results flagged for a closer look

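The effect of P95H differed between the guides in 27 events by the test of the difference itself (limma interaction, 0.0615% of tested events), and the 6 lowest, the 6 highest and NBEAL2 are given here as the difference with sgGPATCH8 minus that with sgRenilla. It was lower with sgGPATCH8 in an unnamed tandem 3' UTR event at hg19 chr14:68117637-68118425 (-45.7 points), RABL2A (-43.7), DLEU1 (-38), SPTB (-35.7), DNHD1 (-33.3), HIST1H2BJ (-28.7) and NBEAL2 (-25.7). It was higher in PSPH (54.3), COL7A1 (53.7), LINC00630 (44), TRAK2 (34.7) and 2 overlapping 3' splice site events of PRR13 (32.7 and 31.3). Of these 13 calls, 4 to 7 stayed called with 1 library left out and 4 with the replicate block.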

How the results depend on the processing

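For P95H against WT with sgGPATCH8, 1786 calls became 1167 with a limit of 10 points and 1 on the 6 libraries alone, a fit with fewer libraries behind the spread, and 738 to 927 with 1 of the 6 libraries left out. For sgRenilla, 475 calls became 0 on its 6 libraries alone (limma; 6011 at an unadjusted p under 0.05) and 79 to 111 with 1 library left out. The interaction's 27 calls became 55 with an offset of 0.05, 15 with a missing value allowed, 244 without a limit on group means, 90 on the percentage, 15 with a constant prior and 5 to 12 with 1 library left out; why they moved was not tested.

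Residuals of same-numbered libraries correlated at -0.0483 to 0.0327 over 18 pairs. This cannot settle whether replicate numbers pair the libraries, since differently numbered libraries were not set beside them. With the replicate block the calls were 1107, 87 and 5. By type, higher and lower, the block gave 48 and 109 for 3' splice sites, 48 and 46 for 5' splice sites, 35 and 48 for exclusive exons, 63 and 28 for retained introns, 14 and 13 for tandem 3' UTRs and 243 and 412 for cassette exons. With 1 library left out these were 21 to 41 and 71 to 104, 33 to 49 and 24 to 36, 25 to 37 and 33 to 49, 36 to 60 and 19 to 32, 9 to 13 and 7 to 16, and 154 to 187 and 294 to 346.

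A weight per library gave 1775, 556 and 27 calls. All 131 named called events kept their sign in every alternative run on them, but this was fixed in advance. The offset, the block and the fit on the 6 libraries leave group means unchanged. Without overlap between the groups, leaving out 1 library cannot turn a sign either. The named called events stayed called with an offset of 0.05 (131), in part with the block (94) or 1 library left out (73 to 83), and not on the 6 libraries alone (0). Of the 13 interactions given above, 13 stayed called with the offset, 4 with the block and 4 to 7 with 1 library left out. Their signs could turn only with a library left out, and did not. Signs of the sgGPATCH8 difference could turn only in uncalled events. With 1 library left out they turned in FES (-8.33 to 10.2), 3 GPATCH8 exons (-0.167 to 3.33, -0.333 to 4.17 and -3.17 to 7.33), NBEAL2 (-0.167 to 1.83) and an SRSF2 exon (-0.167 to 1).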
